A study of Mus musculus with 6 samples.

Results

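Transcript ends that compete within a gene were followed in the mouse cortex after photothrombotic stroke. An end was a row of the deposited event tables of the type TTS, which describes the last exon of a transcript by its first base and its 3′ position. Ends were kept where they carried an Ensembl gene identifier and were listed in all 6 libraries, and genes were kept where 2 or more such ends summed to at least 5 FPKM (read fragments scaled to transcript length and to library size) in every library. This left 1839 ends of 751 genes, out of 18328 ends of 13802 genes listed in any library and 11039 ends listed in all 6. Among genes with ends in all 6 libraries, 1285 had 2 or more, and 3855 genes passed the same minimum with 1 end. The lowest sum just inside the minimum was 5.004 FPKM for C2cd5, and the highest just outside was 4.983 FPKM for 5430416N02Rik. The share of an end is its FPKM over the summed end FPKM of its gene in the same library, in percent.

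The libraries came from the whole ipsilateral cerebral cortex of male C57/BL6J mice aged 6 to 8 weeks at surgery. In the stroke groups Rose Bengal was given and the cortex was lit, which closes vessels under the light, and the tissue was taken at day 1, 3, 7, 14 or 28. Control mice were sham-operated, without that light, and their cortex was taken at day 7 after the operation. RNA of 3 mice was pooled for each library, so every group is 1 library and no difference below has a replicate check or a p-value. Libraries were poly(A)-selected and strand-specific, sequenced as paired reads of 150 bases to a stated average of 33.6 M reads. The depth of each library is unknown from FPKM, so no counting interval is given. In such bulk tissue, fewer cells of a type and less RNA per cell cannot be told apart.

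Most mammalian genes can end their transcripts at more than 1 place. The nascent RNA is cut and given a poly(A) tail downstream of a signal hexamer, most often AATAAA, by the cleavage and polyadenylation machinery, and the choice of last exon is joined to splicing. An earlier (proximal) last exon can change the protein's C-terminus or leave an incomplete message, while a later (distal) one usually gives the full-length form. Brain is known for its many alternative and long 3′ ends, and RNA-binding proteins such as the CELF, QK, NOVA and ELAVL families take part in the choice.

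The ends of 5 genes are shown first as the last 30 transcript bases of each, 5′ to 3′, from the GENCODE M21 transcripts on mm10, because they cover the kinds of choice met below. Capitals mark AATAAA. Gna13 has 2 complete coding last exons, each with its own hexamer, and Celf3 and Sqstm1 pair the main end with an annotated retained-intron model. The main end of Celf3 belongs to coding transcripts with no stop codon in that exon. Its bases were read from a second retained-intron model, Celf3-210. Khdrbs1 pairs a coding end with a model annotated as a target of nonsense-mediated decay. The 2 ends of Fnbp1l lie 6 bases apart and hold the same hexamer.
Gna13 end 1, chr11:109380446-109380475, plus strand: tcacctgAATAAAtgtcattttaaattcta
Gna13 end 2, chr11:109401340-109401369, plus strand: tactgacatttAATAAAcatttataaatga
Celf3 end 1, chr3:94488582-94488611, plus strand: agagatcctccagatgtttgtcccttttgg
Celf3 end 2, chr3:94492153-94492182, plus strand: ttggtcttttctgtctaAATAAAgaaaaaa
Sqstm1 end 1, chr11:50202312-50202341, minus strand: tctagtcttggcaacacaaaaagggttgcc
Sqstm1 end 2, chr11:50199366-50199395, minus strand: gaccacatttctcatataaagaagacatcc
Khdrbs1 end 1, chr4:129713819-129713848, minus strand: ttgcaaaacttgtttAATAAAaatagctgt
Khdrbs1 end 2, chr4:129703164-129703193, minus strand: cgttcAATAAAggcttggtcaagcgatgaa
Fnbp1l end 1, chr3:122538725-122538754, minus strand: ttcatggAATAAAgcaatcttttcatggtc
Fnbp1l end 2, chr3:122538719-122538748, minus strand: gAATAAAgcaatcttttcatggtcagttaa
Ends are numbered 5′ to 3′ within a gene.

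The 751 genes were almost all protein-coding (735). Of these genes, 511 had 2 ends, 170 had 3, 51 had 4, 13 had 5, 5 had 6 and 1 had 8. The last exon of 1667 ends (90.6%) matched an annotated last exon at both edges. By the first base of the last exon, 1011 ends (55.0%) belonged to protein-coding transcripts with their stop codon in that exon (called coding ends), 520 (28.3%) to models annotated as retained introns, 120 (6.53%) to processed transcripts and 35 (1.90%) to nonsense-mediated decay models. A further 89 ends began at the first base of an exon that is internal in the annotation. Ends that share a first base but differ in poly(A) site are 1 row in these tables, so tandem poly(A) sites within a last exon were not resolved.

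For 701 genes the ends reached 2 or more 3′ positions, and the most distal one was compared with the rest. The most distal listed end can lie upstream of the annotated 3′ limit of the gene, as in Wnk1, Ldah, Tardbp, Ctsl and Pam. The most distal ends were coding in 86.0% of 731 cases. The other ends were coding in 29.9% of 1007 cases and retained-intron models in 50.5%. The median distance from the most distal 3′ position to the next was 5357 bases, with quartiles of 1866 and 11826 bases. In 647 genes the most distal and the most used other end lay in separate last exons, and in 54 genes the last exons overlapped.

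The hexamers AATAAA and ATTAAA were searched in the last 40 transcript bases on the transcript strand, and an end holding both was counted once. Either was present in 57.2% of 14047 ends of the whole series with an annotated match, in 71.8% of the most distal ends (n = 638) and in 21.8% of the other ends (n = 970). Coding ends held one in 61.8% of 902 cases and retained-intron models in 13.8% of 507. Ends with a mean share of at least 50% held one in 71.9% of 670 cases, and ends with a mean share under 5% in 19.0% of 733. The annotated 3′ edge of a retained-intron or processed-transcript model need not be a cleavage site, so these matches describe the letters in the window only.

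**Figure D1:**
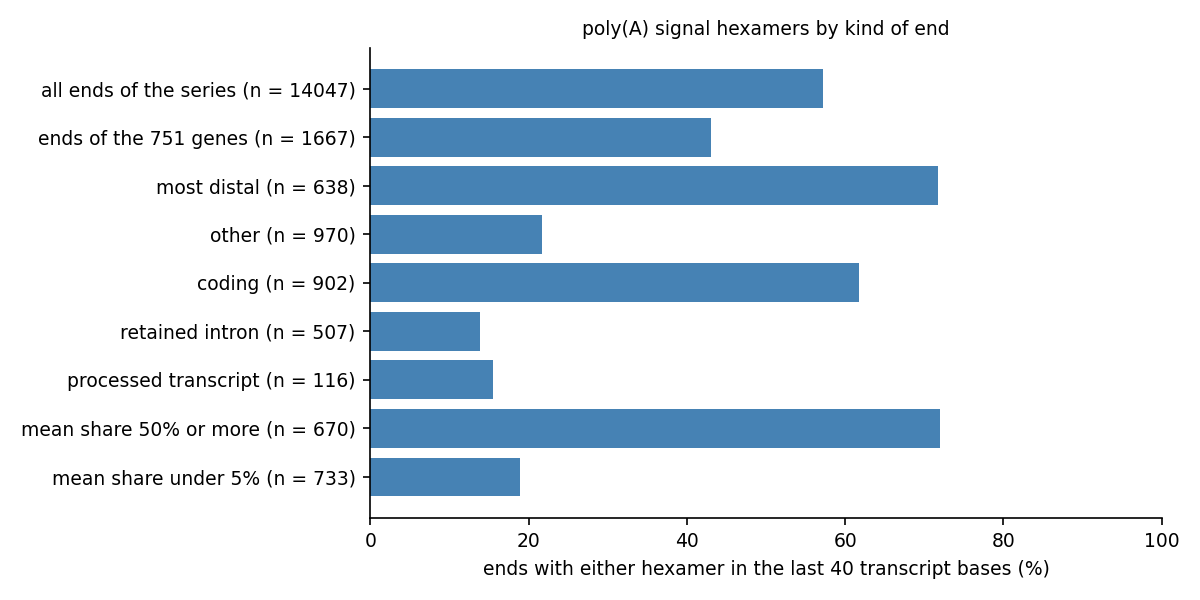
Share of ends (horizontal axis, percent) whose last 40 annotated transcript bases hold AATAAA or ATTAAA, for each kind of end (1 bar each, with its number of ends). The most distal ends reach 71.8% and retained-intron models 13.8%, against 57.2% over all ends of the series.

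The most distal end carried nearly all of the signal in most genes, in control and after stroke alike. Its median share was 98.1% in control and 98.0, 97.9, 97.8, 98.4 and 98.0% at days 1, 3, 7, 14 and 28. It reached 90% or more in 503 to 543 of the 701 genes per library and stayed under 50% in 61 to 80. The median size of the difference from control was between 1.06 and 1.22 percentage points at the 5 time points. Over the 6 libraries the share ranged by under 5 points in 358 genes (51.1%), by 5 to under 20 points in 220, by 20 to under 50 points in 103 and by 50 points or more in 20. The same end was the most used one in every library in 691 of 751 genes (92.0%).

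**Figure D2:**
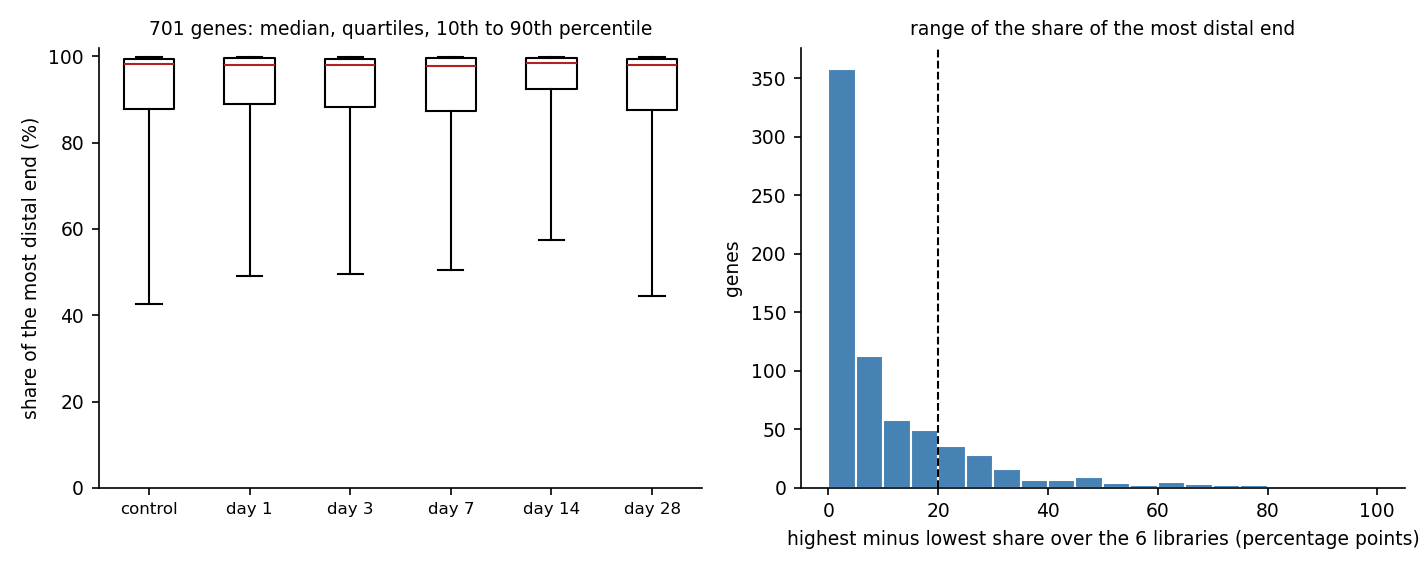
Left, share of the most distal end (percent) in each library over 701 genes, with the median, quartiles and 10th to 90th percentile. Right, number of genes by the range of that share over the 6 libraries (percentage points), with a dashed line at 20 points, which 123 genes reached.

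A wide range was met more often in some kinds of gene. It reached 20 points in 123 of 701 genes (17.5%), in 14.1% of genes with 2 ends, 18.9% of those with 3 and 37.1% of those with 4 or more. The figure was 29.2% of 240 genes where the most used other end was coding. It was 17.8% of 73 for a processed transcript and 7.19% of 334 for a retained-intron model. The smaller classes gave 30% of 30 for the first base of an internal exon and 26.7% of 15 for nonsense-mediated decay models. Coding transcripts with no stop codon in that exon gave 42.9% of 7, and ends not annotated 0% of 2. Where the last exons overlapped it was 33.3%, and where they were separate 16.2%. Genes with a mean sum under 16.8 FPKM reached 20 points in 22.0% of 350 cases, and those at or above it in 13.1% of 351. These are shares of genes in the same 6 libraries and overlap with each other.

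Against control, the share of the most distal end was at least 20 points lower in 15 genes (2.14%) and higher in 20 (2.85%) at day 1. At day 3 it was lower in 7 genes (0.999%) and higher in 21 (3%), and at day 7 lower in 11 (1.57%) and higher in 20 (2.85%). At day 14 it was lower in 10 genes (1.43%) and higher in 40 (5.71%), and at day 28 lower in 18 (2.57%) and higher in 17 (2.43%). The most used end differed from that in control in 27 (3.6%), 24 (3.2%), 31 (4.13%), 35 (4.66%) and 19 (2.53%) of 751 genes at days 1, 3, 7, 14 and 28. The 5 comparisons share the control library.

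Stroke libraries also differed from each other. Over all 15 pairs of libraries, 28 to 54 genes (3.99 to 7.70%) stood 20 points or more apart. The fewest, 28, separated control from day 3, and the most, 54, separated day 14 from day 28. Pairs without control gave 30 to 54 genes, and pairs with control 28 to 50.

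At the 5 FPKM minimum, the day 14 library had more genes with a higher distal share than the other days. Without the minimum, over 1216 genes, the counts at day 14 were 99 higher and 68 lower, both the largest of the 5 days. Its mean share of the most distal end was 88.4%, against 86.0 to 86.9% in the other 5 libraries, and its lower quartile was 92.3% against 87.3 to 89.1%. Set against the median of the other 5 libraries, 23 genes were 20 points higher at day 14 and 7 lower. By this measure control had 5 higher and 18 lower, and day 28 had 3 higher and 17 lower. Days 1, 3 and 7 had 8, 9 and 9 higher and 12, 12 and 15 lower. The day 14 library also listed the fewest events of all types, 83501 against 92295 to 99187. For ends alone the gap was smaller, with 13866 rows at day 14 against 14018 to 15062. Transcript length was compared, in 643 genes, with that of the other annotated end most used in control. Among 559 genes whose most distal end belonged to the longer transcript, 31 were higher at day 14 and 7 lower. Among 84 genes where it did not, 5 were higher and 2 lower. Across the 643 genes, the Spearman rho of the day 14 change with the log2 ratio of the lengths was -0.05. The part of library make-up in the day 14 count was not tested. The numbers at the other days changed by no more than 1.5 times where the genes were chosen without the day 14 library.

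**Figure D3:**
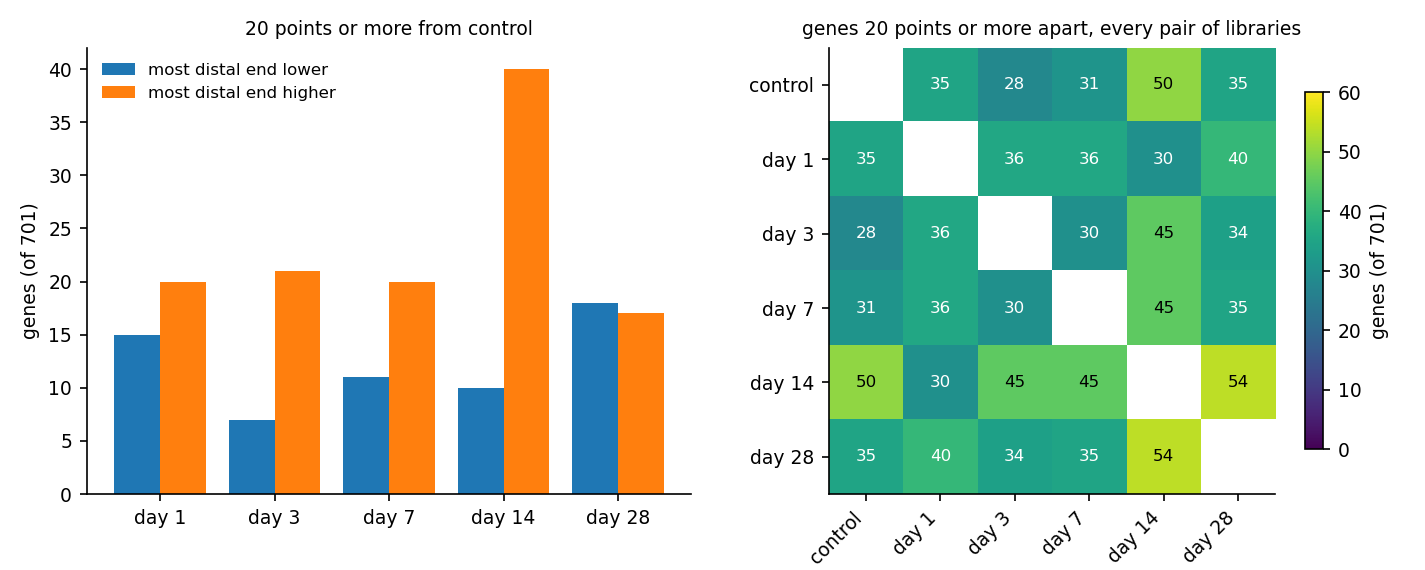
Left, number of 701 genes whose most distal end had a share at least 20 points lower (blue) or higher (orange) than in control, by day. Right, number of genes 20 points or more apart for every pair of the 6 libraries, from 28 (control and day 3) to 54 (day 14 and day 28).

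Among 417 genes with at least 10 FPKM in every library and every end overlapping the annotated gene, the 3 largest rises and falls per day came from 18 genes. Of all 701 genes, Celf3 and Ypel1 alone differed by 20 points in the same direction at both day 3 and day 7 and by under 5 points at day 28. Celf3, a neuronal RNA-binding protein of the CELF family, had the clearest transient pattern. The share of its most distal end was 98.7% in control and 99.4, 46.6, 30.6, 73.1 and 99.0% at days 1, 3, 7, 14 and 28. The proximal end, a retained-intron model whose last exon is 85 bases long and starts 2606 bases upstream, was at 0.17, 0.09, 7.23, 11.9, 6.02 and 0.12 FPKM in the same order. Days 3, 7 and 14 were thus apart from the other 3 libraries, and the distal end was at 6.31 and 5.23 FPKM at days 3 and 7 against 13.2 FPKM in control. In Ypel1, a small zinc-binding protein of the nucleus, the share was 52.2% in control and 55.2% at day 28, and 77.0, 76.5, 80.4 and 81.9% at days 1, 3, 7 and 14. Its distal end stayed between 7.50 and 10.04 FPKM, while the proximal retained-intron end was at 8.38 FPKM in control, 2.18 to 3.09 FPKM at days 1 to 14 and 7.41 FPKM at day 28.

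Several genes differed from control late and had not returned at day 28. Sqstm1 encodes p62, a receptor that brings ubiquitinated cargo to autophagy. Its most distal share was 99.9% in control and at day 1, and 91.1, 70.4, 98.6 and 51.0% at the 4 later times. The proximal retained-intron end, 283 bases long, was at 0.08 FPKM in control and at 10.2, 44.5, 2.34 and 96.8 FPKM at days 3, 7, 14 and 28. The distal end was at 140.8 FPKM in control and 100.8 FPKM at day 28, so the gene's sum was highest at day 28, at 198 FPKM. The low value at day 14 breaks any steady order in time.

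Hnrnpk, an RNA-binding protein of the nucleus and cytoplasm, split its signal over 4 ends, of which the most distal one reaches beyond the annotated end of the gene. End 2, a coding last exon 2369 bases upstream of the most distal one, was at 66.3 FPKM in control and 41.9 FPKM at day 1, and at 1.62, 4.09, 1.73 and 4.10 FPKM afterwards. The most distal share was 36.8 and 31.3% in control and at day 1 and between 79.2 and 86.9% at the 4 later times. The sum over the ends was 145 FPKM in control and 13.1 FPKM at day 14. Ends 3 and 4 of Hnrnpk use last exons that start at chr13:58392476 and chr13:58392416 on the minus strand. Their first 15 bases (capitals), after 15 bases of the exon before, are shown because the starts lie 60 bases apart and open alike.
Hnrnpk end 3: tttgctgcagaacagTGTGAAGCAGTATGC
Hnrnpk end 4: tttgctgcagaacagTGTGAAGCAGTATTC
Dgkz, diacylglycerol kinase zeta, followed the same order of libraries. Its proximal retained-intron end was at 20.2 and 13.4 FPKM in control and at day 1, and at 0.01 to 0.03 FPKM from day 3 on. The most distal share was 67.9 and 69.0%, then 99.6 to 99.9%. Dtx3, a ubiquitin ligase of the deltex family, used its proximal coding end at 4.76% or less in control and at day 1, with most distal shares of 95.2 and 95.6%. The distal share was 78.2, 93.6, 79.5 and 66.8% at the 4 later times, with the proximal end at 10.3, 2.57, 15.9 and 19.0 FPKM against 2.29 FPKM in control.

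At day 1, Gna13 and Ip6k2 differed between coding ends. Gna13 encodes the alpha subunit of a heterotrimeric G protein. Its proximal end, whose sequence is shown above, was at 2.03 FPKM in control, 13.4 FPKM at day 1 and 2.29 to 4.23 FPKM at the later times, while its distal end stayed between 7.80 and 13.5 FPKM. The distal share was 81.5% in control, 42.4% at day 1 and 67.4 to 80.6% afterwards, so the day 1 library alone was low. Ip6k2 is an inositol hexakisphosphate kinase whose most distal end also reaches beyond the annotated end of the gene. Its most distal share was 71.9 and 82.0% at days 1 and 14 and 23.9 to 34.0% in the other 4 libraries. Its coding end 3 has a last exon of only 28 bases, against 880 bases for the most distal end.

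Ndufa12, an accessory subunit of respiratory complex I, had the largest fall at day 1. Its most distal share was 99.8% in control and 33.5, 99.7, 76.5, 68.2 and 94.3% at days 1, 3, 7, 14 and 28. The distal coding end was at 77.2 FPKM in control and 13.3 FPKM at day 1, when the retained-intron end, 17393 bases upstream, was at 26.3 FPKM against 0.13 FPKM in control. Ldah, a lipid droplet hydrolase, was low at 2 distant times, with 66.7% at day 1 and 70.0% at day 28 against 97.8 to 99.6% in the other 4 libraries. Its most distal listed end lies upstream of its annotated 3′ limit. In Fnbp1l, an adaptor of membrane curvature and actin, the most distal end was at 0.00% in control, 49.6% at day 1 and 6.64 to 24.1% afterwards. Its 2 ends differ by 1359 bases in the first base of the last exon and by 6 bases in the 3′ position, so its 2 forms differ in the last exon more than in the place of the end.

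Other named genes moved far between libraries with no order in time. The most distal listed end of Wnk1, a kinase that regulates chloride cotransporters, lies upstream of the annotated 3′ limit of the gene. Its share was 41.6 and 42.1% in control and at day 7, and 81.6 to 94.1% in the other 4 libraries. Khdrbs1 (Sam68), an RNA-binding protein, was at 3.45% in control and at 2.50, 77.7, 2.60, 47.8 and 3.47% at days 1, 3, 7, 14 and 28. Its coding end was at 27.7 FPKM in control and 5.41 FPKM at day 3, when the distal end was at 18.9 FPKM, while the sum of both stayed between 24.0 and 30.2 FPKM. In Ipo9, an importin, the share was 53.2 and 50.5% in control and at day 7 and 98.8 and 99.5% at days 3 and 14. Srrm1, a splicing coactivator, was at 54.3% in control and at 14.4, 67.0, 85.6, 65.9 and 55.1% at days 1, 3, 7, 14 and 28. Control resembled 1 or more of the stroke libraries in each of these genes.

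Among the remaining named genes, Rabl6, a GTPase-like protein, was lowest at day 3, at 71.0% against 99.9% in control. Tomm40l, a mitochondrial import channel protein, was also lowest at day 3, at 70.9% against 98.3%. The uncharacterised gene 2310061I04Rik had 28.5% in control, 50.2% at day 1 and 0.03% at day 7, but its 2 main ends lie 4 bases apart in 3′ position. Nsg2, a neuronal vesicle protein, was at 76.0% at day 14 and 94.2 to 98.9% in the other libraries. Its listed ends leave out last exons with the same 3′ position that were absent from control and stood at 142.6 and 32.4 FPKM at day 14, against 13.9 FPKM for the distal end counted here, so its low value at day 14 is not a lower use of that 3′ position.

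**Figure D4:**
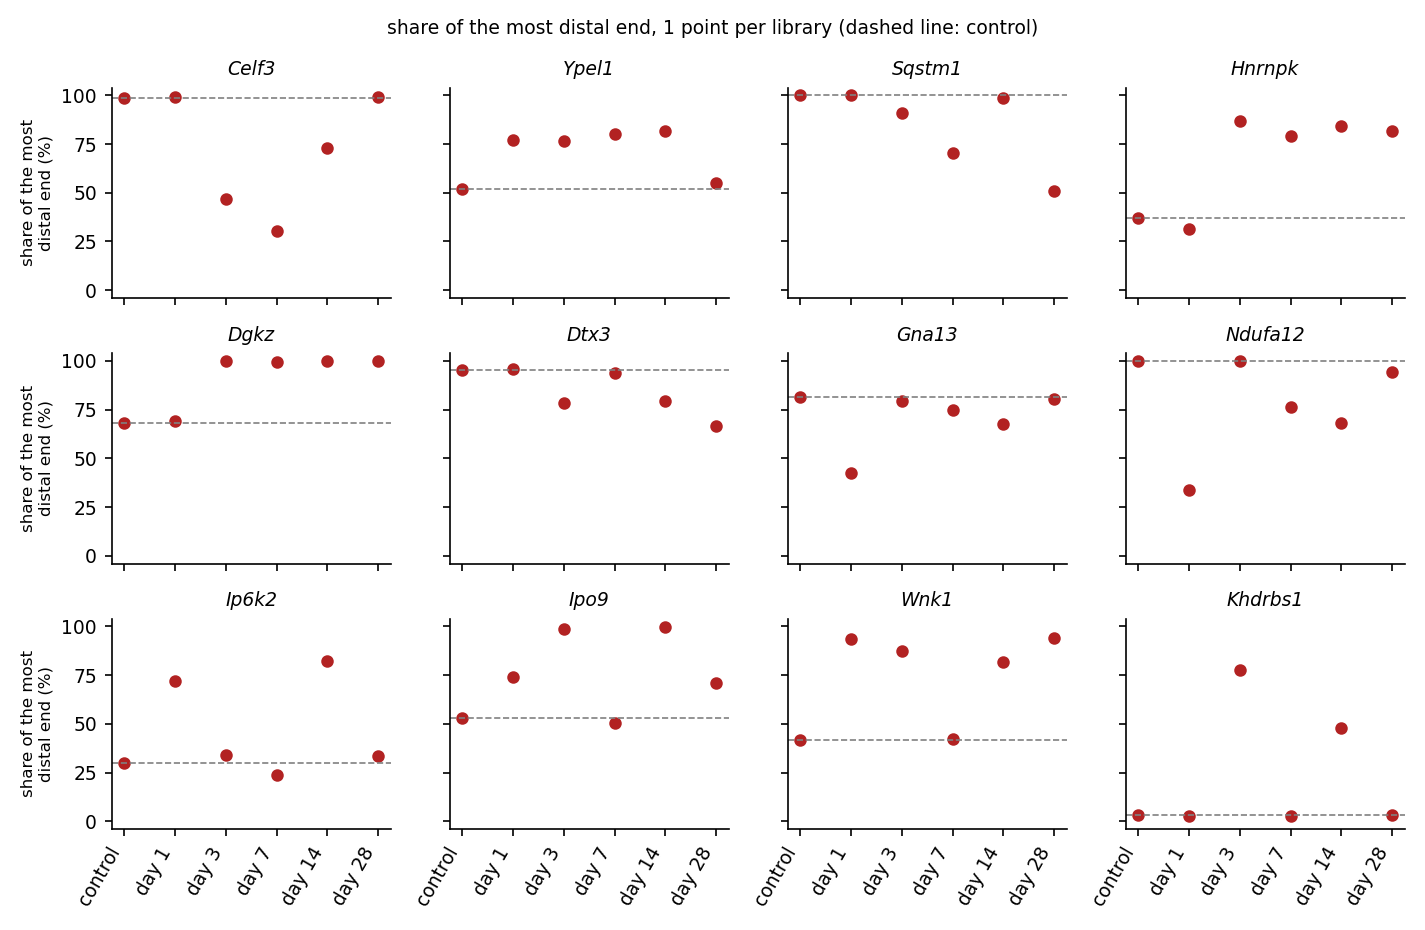
Share of the most distal end (vertical axis, percent) in each library (horizontal axis) for 12 genes, 1 point per library, with a dashed line at the control value. Celf3 was low at days 3, 7 and 14, Hnrnpk and Dgkz were high from day 3 on, and Wnk1 and Khdrbs1 moved without an order in time.

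Genes on a list of known alternative last exons or ends were mostly outside the rule: 4 of 63 were included, namely Qk, Cadm1, Pam and Kif1b. Qk, an RNA-binding protein of glia and oligodendrocyte precursors, ends its isoforms in different C-termini. Its most distal end took 16.0% in control and 16.97 to 20.97% after stroke. The other 2 ends share a 3′ position, and the one with the shorter last exon was at 28.0 FPKM in control, 7.24 FPKM at day 14 and 21.5 to 35.5 FPKM at the other times. In Cadm1, a synaptic adhesion protein, the most distal end was at 0.00 FPKM in control and at day 1, and at 0.10, 2.24, 2.21 and 1.74 FPKM from day 3 to day 28. Its share was 6.31, 6.87 and 4.92% at days 7, 14 and 28. Pam, a peptide-amidating enzyme, was at 97.4 to 99.5% in every library, but both of its ends are retained-intron models upstream of its annotated 3′ limit, so its share does not concern the last exon at that limit. Kif1b is a kinesin of synaptic vesicle and mitochondrial transport. Its most distal share was 99.3 to 99.6% in control and at days 1 and 28, and 99.2% at day 14. The share was 92.3% at day 7 and 86.3% at day 3. At day 3 its proximal retained-intron end was at 9.38 FPKM against 0.21 FPKM in control. A further coding end of Kif1b was not listed at days 1 and 14 and so was left out of the shares. That end was at 1.00, 0.63, 1.11 and 2.49 FPKM in control and at days 3, 7 and 28.

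Lamp2, a lysosomal membrane protein whose alternative last exons give its known isoforms, was picked after its values were seen. It has 3 coding ends that follow the same exon. The proximal one (end 2) was at 13.2, 16.2, 22.4, 26.5, 16.5 and 15.05 FPKM in control and at days 1, 3, 7, 14 and 28. The middle one (end 3) was at 8.73, 12.4, 16.1, 19.4, 14.4 and 11.5 FPKM. The most distal one (end 4) was at 7.51, 7.04, 7.80, 5.04, 6.34 and 7.26 FPKM. Ends 2 and 3 were thus highest at day 7, where end 4 was lowest, and the share of end 4 was 25.4% in control, 9.90% at day 7 and 21.4% at day 28. The largest difference in share from control stayed under 20 points. The last exons of the 3 coding ends open with different sequence (capitals) after a shared exon.
Lamp2 end 2: gacagtattctacagCCCAGGAGTGTTCGC
Lamp2 end 3: gacagtattctacagCTCAAGACTGCAGTG
Lamp2 end 4: gacagtattctacagCTGAGGAATGTGCTG
Markers of several cell types differed between the same libraries. The summed level of the 10 of 12 microglia or macrophage markers listed in every library was 189, 257, 724, 1265, 933 and 248 FPKM in control and at days 1, 3, 7, 14 and 28. P2ry12, a marker of resting microglia, was at 18.04 FPKM in control, 7.01 FPKM at day 1 and 17.7 FPKM at day 7, and did not follow that sum. The 6 fibroblast markers summed to 28.0, 30.4, 89.2, 109, 97.0 and 27.2 FPKM in the same order. For 7 of 8 astrocyte markers the sum was 847 FPKM in control and 1492 FPKM at day 3. Of these astrocyte markers Gfap alone was 2-fold higher at any day, at 82.5 FPKM in control and 681 FPKM at day 3. Cx3cr1 and Tmem119, defining markers of microglia, were not listed in control and only in some stroke libraries. For 8 of 10 neuron markers the sum was 1536, 1476, 1159, 1174, 1103 and 1405 FPKM from control to day 28. Of these 8 neuron markers 0 were 2-fold lower and 1 was 2-fold higher at any day, namely Stmn2, at 1.01 FPKM in control. Of the 10 microglia or macrophage markers 9 were higher and 1 was lower. Of the 6 fibroblast markers 5 were higher and 1 was lower, Col3a1 being in both counts. Over all 9519 genes compared, 15.7% were higher and 10.1% lower at any day. The part of cell composition in the shares was not tested. No gene of the 6 marker lists was among the 751 genes.

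Some genes with large changes in level had nearly the same distal share in every library. Ctsd, the lysosomal protease cathepsin D, was at 124 FPKM in control and at 151, 655, 1169, 486 and 135 FPKM at days 1, 3, 7, 14 and 28, with a most distal share of 98.5 to 99.9%. Grn, the growth factor progranulin, was at 14.7 FPKM in control and 110 FPKM at day 7, with shares of 97.6 to 99.6%. Ctsl, cathepsin L, was at 31.4 FPKM in control and 118 FPKM at day 7, with shares of 98.5 to 99.9%. These 3 genes were picked after their values were seen. Among genes with a distal share, 7 (day 28) to 37 (day 14) differed from control by 2-fold or more in level, and 0 to 4 of them per day also differed by 20 points in share. That was 25% of 12 such genes at day 1, 3.70% of 27 at day 3, 14.3% of 14 at day 7, and 10.8% and 0% at days 14 and 28. The corresponding shares of the other genes were 4.64, 4.01, 4.22, 6.93 and 5.04%. The 5 genes with the highest sum in control were Ptgds, Apoe, Kif5a, Ckb and Actg1. Their most distal share was at least 98.2% in every library, except for Actg1 at day 3, at 92.5%. The 2 ends of Ptgds lie only 2 bases apart in 3′ position. A further retained-intron end of Actg1 was not listed at day 3 and so was left out of the shares. It was at 6.89 to 12.7 FPKM in the other libraries. Apoe, the main lipid carrier of the brain, ran from 279 FPKM at day 1 to 3494 FPKM at day 14 with shares of 99.5 to 100%, and Ptgds, prostaglandin D2 synthase, from 711 to 1969 FPKM.

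**Figure D5:**
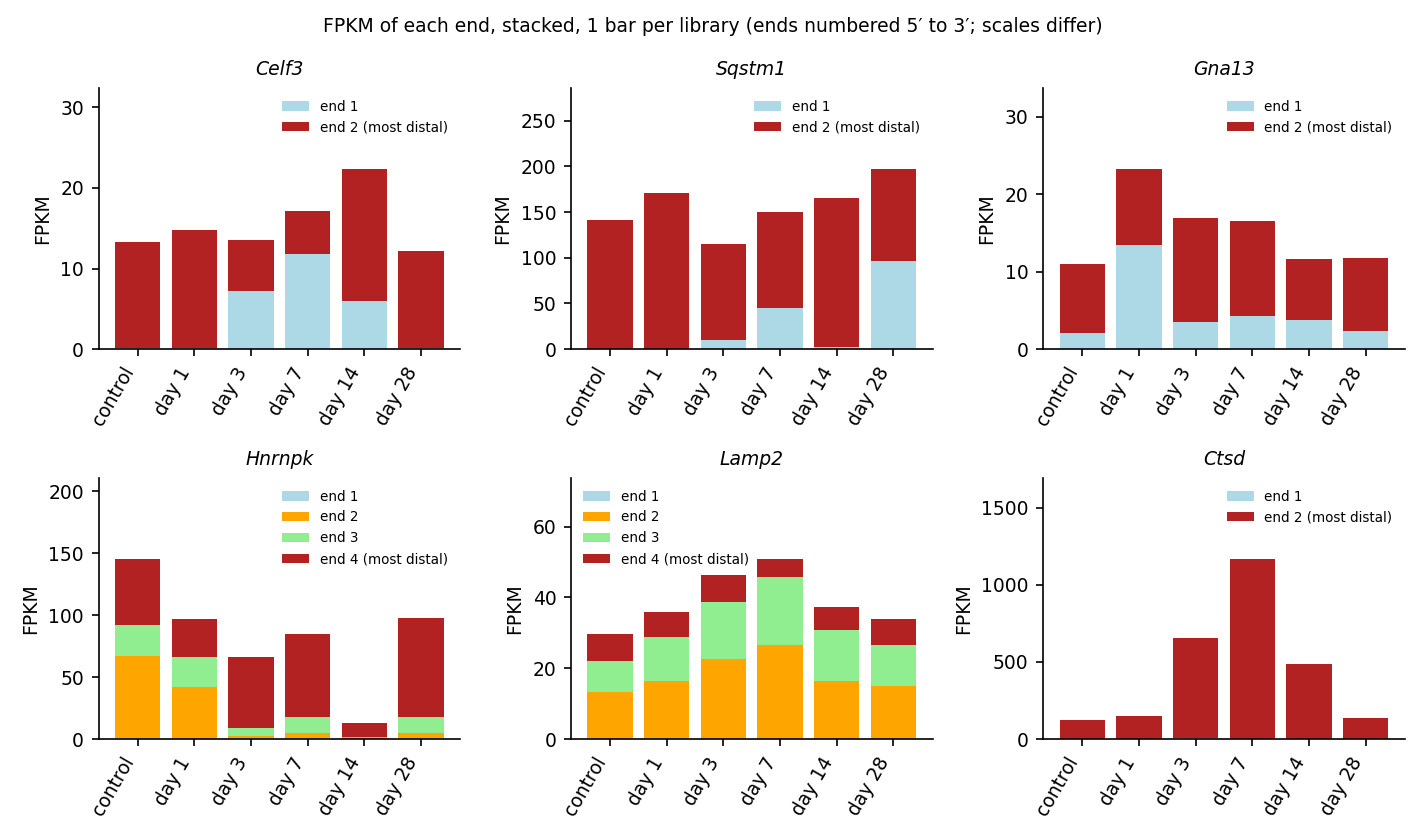
FPKM of each end, stacked (vertical axis, scales differ), in each library (horizontal axis) for 6 genes, with the most distal end in dark red and ends numbered 5′ to 3′. Celf3 and Sqstm1 had a proximal end at some days, Gna13 mainly at day 1, and Ctsd reached 1169 FPKM at day 7 with almost no proximal end.

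Genes were also grouped by their symbols after the members were seen, so the groups are descriptions only. The groups were not matched by the number or kind of ends, with which the range also varied, as given above. RNA-binding and splicing proteins reached a range of 20 points in 14 of 42 genes (33.3%), against 17.5% over all 701. Besides Khdrbs1, Srrm1, Celf3 and Hnrnpk, they included Tial1, at 53.2% at day 3 against 87.2 to 98.7% in the other libraries, and Ewsr1, at 99.2% at day 3 against 52.5 to 79.8%. Neurotransmitter receptors, ion channels and pumps reached it in 0 of 12. Their median range was 0.57 points, and the AMPA receptor subunit gene Gria2 and the NMDA receptor subunit gene Grin1 held 98.7% or more throughout. Ribosomal protein genes reached it in 0 of 8, respiratory chain and ATP synthase genes in 1 of 7 (Ndufa12), and lysosome, phagocyte and antigen presentation genes in 4 of 19 (Sqstm1, Coro1a, Sidt2 and Atp6ap1l).

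The factors that cut and choose ends were read by their summed end FPKM, with levels compared as log2((FPKM + 0.1)/(control FPKM + 0.1)). Of 48 factors on the list, 37 could be compared, 2 were 2-fold higher at 1 or more days and 6 were 2-fold lower, 1 gene being in both counts. Over all 9519 genes compared, 15.7% were higher and 10.1% lower. Nudt21, a subunit of cleavage factor I, was at 11.5 FPKM in control, 5.25 FPKM at day 3 and 4.12 FPKM at day 28, and 9.72 to 12.4 FPKM at the other times. Tardbp (TDP-43), an RNA-binding protein, was at 51.7 and 51.6 FPKM in control and at day 1, 17.1 FPKM at day 3, 30.9 and 27.9 FPKM at days 7 and 14 and 49.8 FPKM at day 28. The splicing repressor Ptbp1 was at 4.01 FPKM in control and 0.79 to 1.59 FPKM after stroke. Cdk12, a kinase of elongating polymerase, was at 1.02 FPKM in control and 2.34 and 2.74 FPKM at days 3 and 7. Cstf3, a subunit of cleavage stimulation factor, was at 5.42 FPKM in control and 2.62 FPKM at day 14, and Ptbp2 at 1.17 and 0.32 FPKM in the same libraries. Pabpn1, the nuclear poly(A)-binding protein, was listed at 2.96 and 1.11 FPKM in control and at day 28 and at 69.5 to 88.1 FPKM in between. It overlaps the readthrough gene Gm20521 on the same strand, so this value is uncertain.

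In the 7 factors with alternative ends of their own, the share of the most distal end differed from control by under 20 points. The distal listed end of Tardbp belongs to a nonsense-mediated decay model and lies upstream of the annotated 3′ limit of the gene. Its share was 59.2% in control and 52.1 to 69.6% after stroke, while both ends of Tardbp were lower at day 3. The most distal share was 97.9 to 99.3% in Pabpc1, 91.2 to 98.4% in Snrnp70, 88.9 to 98.6% in Cdk13, and 99.9% in every library in Srsf3. In Sympk, the scaffold of the cleavage complex, it was 85.2% at day 14 and 95.1 to 97.5% in the other libraries. Qk is the seventh and is described above. This measure sums its ends with a shared 3′ position, so the low day 14 level of the end with the shorter last exon does not show in it.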

How the data were processed

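RNA was sequenced from 6 pooled libraries. The values are FPKM computed and deposited by the authors for each transcript start, end or splicing event. The submitters' processing notes name Trimmomatic 0.30, HISAT2 2.0.1, HTSeq 0.6.1 and mm10, with no roles; the assembler and event caller are not given in the sources used here. FPKM per end come from the assignment of reads to transcript models, so ends with overlapping exons cannot be fully told apart. Ends were classed by the first base of their last exon against GENCODE M21. Most distal means the most downstream 3′ position, ends at the same position being summed. Differences of 20 percentage points of share, or 2-fold in level where either library reached 1 FPKM, were counted, with no test, since each group is 1 library. Genes named are the 3 largest rises and falls per day, genes that differed at both day 3 and day 7 but by under 5 points at day 28, members of the lists, and the 5 highest in control. Members and lists were chosen with earlier results of these data known. The code was tested on simulated shares. Python 3.11.15, numpy 2.4.6 and pandas 2.3.3 were used.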

Additional observations from a re-analysis of the deposited data

Results flagged for a closer look

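Ends that were not listed in control but took at least 20% of their gene's summed end FPKM after stroke numbered 17, 16, 16, 14 and 8 at days 1, 3, 7, 14 and 28. They lie outside the comparisons above, which use ends listed in all 6 libraries. In all there were 48 of 2980 ends (1.61%), of which 6 were listed in all 5 stroke libraries and 21 in 1. By the same measure, 39 (day 7) to 48 (day 28) ends were not listed in a given stroke library but took 20% or more in another library, so the count for control equalled that for day 28. The 6 ends absent from control and listed in every stroke library were in Rrbp1, Fam184a, Plppr3, Gpc5, Sdr39u1 and Shisa9. In Gpc5, a glypican, the end absent from control took 62.1 to 89.2% after stroke. In Fam184a a coding end took 1.64, 8.08, 15.7, 40.4 and 1.35% at days 1, 3, 7, 14 and 28. In Mpeg1, a macrophage gene chosen after its values were seen, an end absent from control was at 33.1 and 37.3 FPKM at days 3 and 7 and was not listed at day 14. Genes used by every cell can also be missing from a table, so an end that is not listed is not shown to be unused.

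Among the 417 genes from which genes were named, the share of the most distal end moved in opposite directions by 20 points at different days in 2, and the difference between days was not tested. In Srrm1 the change from control was -39.9 points at day 1 and 31.3 points at day 7. In 2310061I04Rik it was -28.5 points at day 7 and 21.7 points at day 1. Outside those 417, Amigo1 and Ggps1 also did. Amigo1 was at 33.5% in control, 99.9% at day 7 and 12.9% at day 28.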

How the results depend on the processing

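Of 110 counts under alternatives, 64 stayed within 1.5 times the reported count and 46 did not. Counts are given in the order of days 1, 3, 7, 14 and 28. With a minimum of 10 FPKM, 480 genes remained, of which 451 had a distal share. Of the 451, the most distal end was lower in 8, 3, 6, 4 and 6 genes and higher in 10, 10, 12, 22 and 7. The most used end differed in 15, 13, 14, 16 and 10 of the 480. With no minimum, 1216 genes had a distal share, with 60, 46, 57, 68 and 64 lower and 63, 67, 67, 99 and 72 higher. Another most used end was found in 84, 70, 92, 107 and 88 of 1285 genes. Both settings change the number of genes compared. Ends listed in any library, with absent ones set to 0, gave 1091 genes, of which 1015 had a distal share. The most distal end was then lower in 26 (2.56%), 18 (1.77%) and 24 (2.36%) genes at days 1, 3 and 7. The most used end differed in 38 (3.48%) at day 3. At 30 points, 8, 3, 6 and 7 genes were lower at days 1, 7, 14 and 28, and 9, 13, 6, 21 and 8 were higher. Merging ends within 100 bases left 12 of 751 genes with another most used end at day 28. Taking the most distal end by the first base of its last exon left 12 of 751 genes lower at day 3. The causes of these were not tested. With a pseudocount of 1, 4 factors differed 2-fold in level in place of 7 (Nudt21, Pabpn1, Ptbp1 and Tardbp). Limiting ends to those overlapping the annotated gene, choosing genes without the day 14 library (an alternative added after seeing the data) and scaling by the library median moved no count by over 1.5 times.

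No paired analysis was possible because every group is 1 library, and for the same reason no replicate was left out. The depth of each library is unknown from FPKM, which limits all shares of genes near the minimum.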
